A study of Xenopus tropicalis with 10 samples.

Results

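Tail tissue of *Xenopus tropicalis* tadpoles at 24 hours post amputation (hpa) was compared with tail tissue at 15 hpa. The comparison rests on 3 of the 10 RNA-seq libraries of the series: 2 libraries at 24 hpa and 1 at 15 hpa. All libraries came from tails of stage 40 tadpoles, with no strain, genotype or drug named. Values at other times are given where they place the step: regenerating tissue at 6 hpa (1 library) and 72 hpa (2 libraries), tissue beside the wound cut away at 0 hpa (2 libraries), and the whole tail removed by the first cut (2 libraries). Neither the number of animals behind a library nor separate clutches are given, so a p-value here reflects how far libraries vary, and that variation may be technical. Duplicates are mentioned in the design text. At 15 hpa a single library was analysed, and no source used here says whether it pools a pair.

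A frog tadpole regrows its amputated tail in overlapping phases. Epidermis covers the stump, leukocytes enter the wound and release oxidants and proteases, and a bud of proliferating cells then forms around the cut notochord, spinal cord and muscle. Neutrophils and macrophages kill microbes with an NADPH oxidase and with peroxidases, and secreted matrix metalloproteinases cut the extracellular matrix. FGF, Wnt and BMP ligands are known to be needed for outgrowth.

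The 15 hpa library held 121670034 gene reads and the 24 hpa libraries 27948915 and 30181402, so 3 reads correspond to 4.10 and 3.60 normalised reads at 24 hpa and to 0.895 at 15 hpa. These limits cover counting error only. Levels are gene reads divided by a size factor (normalised reads), which are not per length and so are compared between libraries and not between genes. Markers of epidermis (TP63, CDH1, EPCAM), muscle, notochord, spinal cord, blood, leukocytes and endothelium were present in all 3 libraries. The 24 hpa libraries differed in muscle: sarcomere genes took 1.30% and 0.522% of reads there, against 1.16% at 15 hpa. In all, 2525 genes (14.1%) differed at least 2-fold between the 24 hpa replicates.

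Few genes passed a test of this step. Of 17896 genes tested, 6 rose at 24 hpa (0.0335%) and 0 fell (0%) at a limma adjusted p under 0.05. At an unadjusted p under 0.05 there were 826 (4.62%), of which 543 were higher (3.03%) and 283 lower (1.58%) at 24 hpa. Fitted values were above 0 for 47.9% of genes and below 0 for 52.1%. edgeR's quasi-likelihood test on the recovered reads called 1 gene higher and 0 lower, with 989 at an unadjusted p under 0.05, and DESeq2 called 162 higher and 42 lower. On simulated counts 68 of 186 DESeq2 calls were false, against 8 of 99 for limma, and limma recovered 2% of changes of 1 log2 unit. Changes were simulated at 24 hpa only, so these rates do not cover a deviation of the single 15 hpa library. Genes were also described by a size rule without a test: both 24 hpa libraries at least 2-fold from the 15 hpa library in the same direction, with at least 100 normalised reads in the higher group. This rule held for 215 genes higher at 24 hpa (1.2%) and 209 lower (1.17%). With 1 library against 2, an exact permutation test of a single gene cannot go below p = 0.333.

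**Figure D1:**
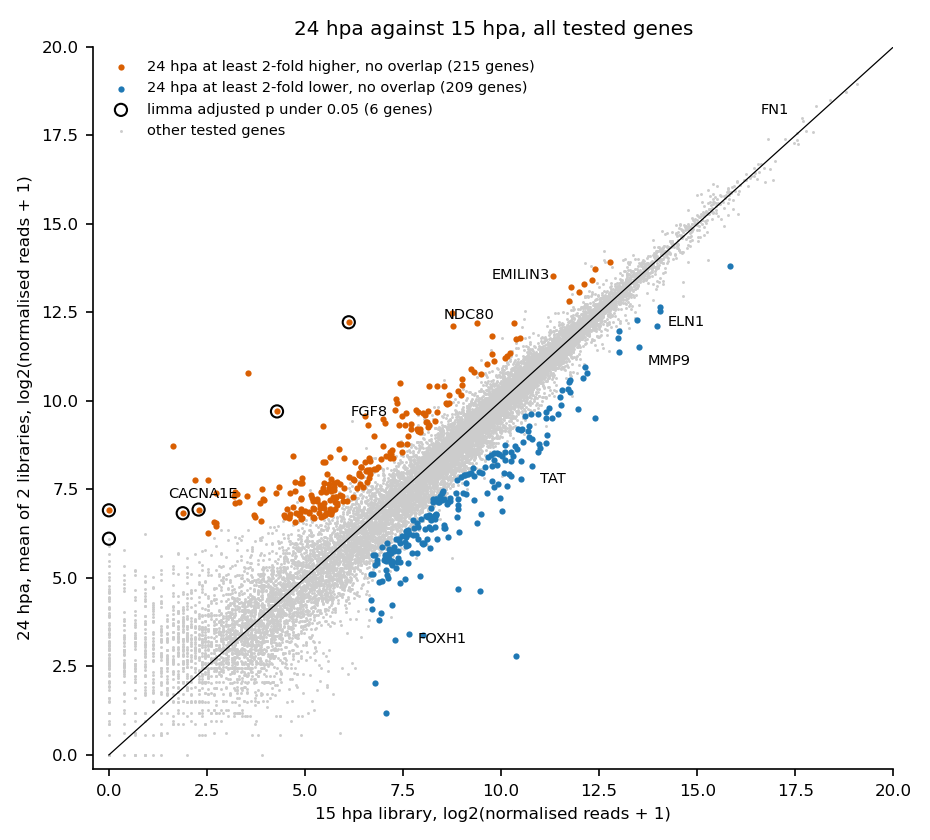
Each point is 1 of 17896 tested genes, with the log2 normalised reads of the 15 hpa library on the x axis and the mean of both 24 hpa libraries on the y axis. The 6 ringed genes that passed limma's test all lie above the diagonal, and the coloured points are the 215 genes at least 2-fold higher and the 209 at least 2-fold lower in both 24 hpa libraries.

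Among the genes of the size rule, one set stood apart at 15 hpa from both 0 and 24 hpa, called passing here, and a smaller set left its early level between 15 and 24 hpa. In 110 genes (0.615%) the 15 hpa library stood at least 2-fold above all 4 libraries of 0 and 24 hpa, and in 101 genes (0.564%) at least 2-fold below them. Together they made up 110 of the 209 genes lower at 24 hpa and 101 of the 215 higher. A gene was said to move first after 15 hpa where the 6 and 15 hpa libraries lay within 0.5 log2 units of the 0 hpa mean and both 24 hpa libraries were at least 2-fold beyond all earlier ones. Only 5 genes moved higher in this way (0.0279%) and 8 lower (0.0447%). These patterns were picked from the values of 0, 6, 15 and 24 hpa, so they are described without a test. Because each passing gene rests on the 15 hpa library, a passing level in the tissue and a deviation of that library cannot be told apart.

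Phagocyte genes formed a group among the passing genes above. Of 26 leukocyte genes tested, 24 had a fitted value below 0 in 24 hpa minus 15 hpa, with a median log2 difference of -1.02 against -0.02 over all tested genes, where 52.1% of genes were below 0. In single 24 hpa replicates the median was -1.17 and -0.76. By the size rule 8 were lower at 24 hpa (30.8%, against 1.17% of all tested genes) and 0 higher. The same 8 met the passing rule. Without 24 hpa replicate 2 the count lower was 14, but leaving out a replicate relaxes the rule. The count lower over all tested genes then rose too. limma's adjusted test called 0 and edgeR 0, while 13 had an unadjusted limma p under 0.05 and 5 were lower by DESeq2 (LCP1, ITGAX, NCF4, RAC2 and ARHGDIB). The summed level of the list took 0.050% and 0.0643% of reads at 24 hpa, against 0.113% at 15 hpa. Before and after this step it took 0.0280% and 0.0320% at 0 hpa, 0.0621% at 6 hpa, and 0.0888% and 0.0768% at 72 hpa. In whole tissue, fewer leukocytes and less RNA per leukocyte cannot be told apart.

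The oxidase that makes superoxide in phagocytes showed the pattern in several of its subunits. CYBB, its catalytic membrane subunit, had 781 and 1001 normalised reads at 24 hpa, against 2393 at 15 hpa, with 393 and 564 at 0 hpa and 966 at 6 hpa before that. Its log2 difference was -1.44 (SE 0.44, limma adjusted p = 0.68). The cytosolic organiser NCF1 had 231 and 367 normalised reads at 24 hpa, against 953 at 15 hpa. For NCF4, another cytosolic subunit, the levels were 105 and 169 at 24 hpa and 479 at 15 hpa. RAC2, the GTPase that switches the oxidase on, had 792 and 795 at 24 hpa, against 1979 at 15 hpa (log2 difference -1.32, SE 0.25, limma adjusted p = 0.36). CYBA, the partner of CYBB in the membrane, overlapped, with 1197 and 2117 at 24 hpa and 1819 at 15 hpa.

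Some other genes linked to leukocytes, among them peroxidases and surface receptors, were also lower at 24 than at 15 hpa. MPO, the peroxidase of neutrophil granules, had 4515 and 5439 normalised reads at 24 hpa, against 11260.0 at 15 hpa, with 2503 and 2713 at 0 hpa and 4541 at 6 hpa before that. LOC100496213, epx in RefSeq and an eosinophil peroxidase by name, had 5304 and 7714 at 24 hpa, against 16906 at 15 hpa. ITGAX, an integrin of myeloid cells, had 276 and 357 at 24 hpa and 1445 at 15 hpa (log2 difference -2.20, SE 0.45, limma adjusted p = 0.37). In each of these genes the 15 hpa library was above all other libraries of the series. C5AR1, the receptor for complement fragment C5a, had 93.0 and 86.5 at 24 hpa and 373 at 15 hpa. The Ets family transcription factor SPIB had 413 and 445 at 24 hpa and 1092 at 15 hpa. LYG2, a lysozyme of the goose type, had 354 and 570.4 at 24 hpa, against 2257 at 15 hpa, and later 1071 and 1084 at 72 hpa. LOC100496213, C5AR1, SPIB and LYG2 are not in the leukocyte list. Outside that list, genes also went the other way. SPIC, another Ets factor, and CCR7, a chemokine receptor, were higher at 24 hpa, with DESeq2 log2 differences of 6.78 and 3.80. Leukocyte genes below the threshold included LCP1, an actin-bundling protein (1921 and 2331 at 24 hpa, 4463 at 15 hpa), and CSF1R, the macrophage growth factor receptor (2074 and 2317 at 24 hpa, 3218 at 15 hpa).

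**Figure D2:**
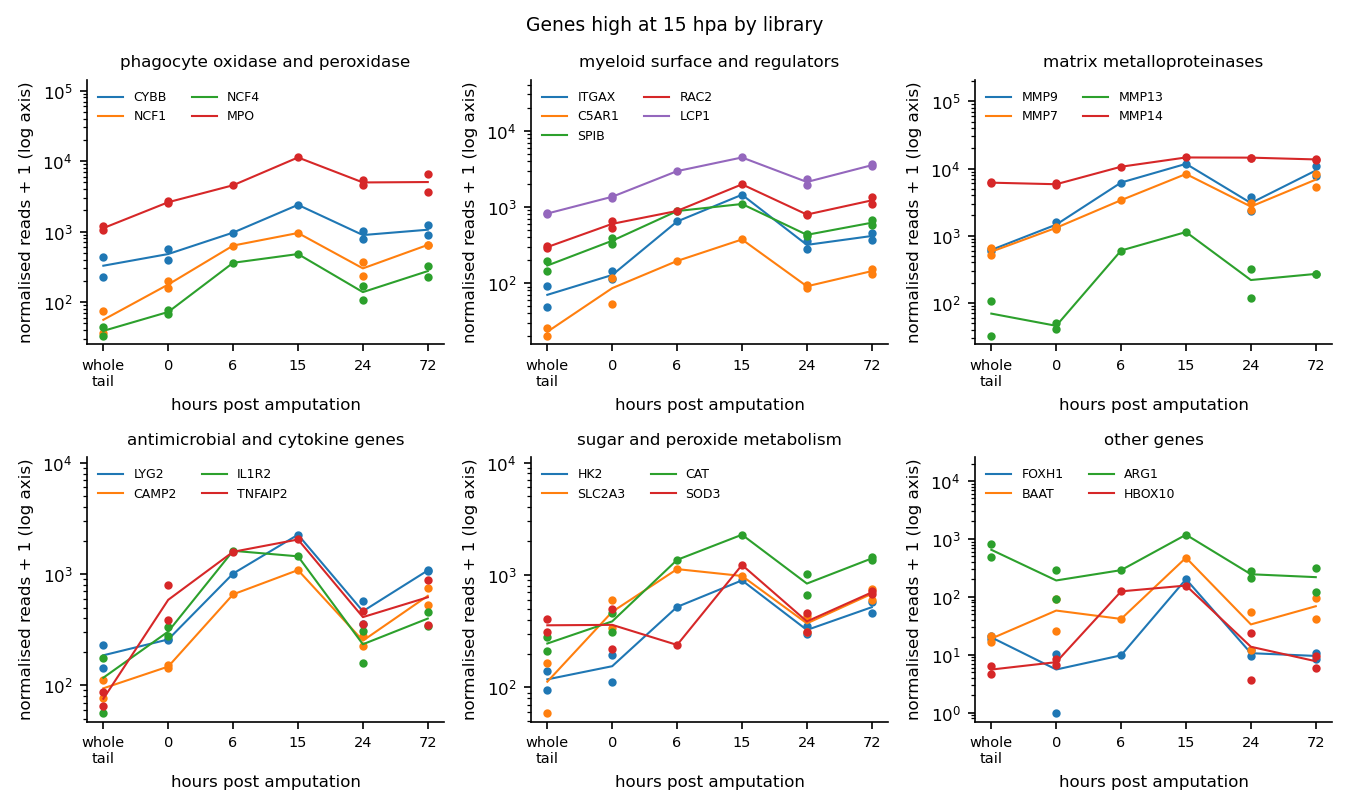
Normalised reads plus 1 on a log axis in all 10 libraries for the genes named in the panels, as points, with lines through the mean of each group, ordered from the whole tail to 72 hpa. For every gene except MMP14, both 24 hpa points lie more than 0.5 log2 units below the 15 hpa point, and MMP9 and MMP7 are high again at 72 hpa.

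The secreted proteases MMP9, MMP7 and MMP13 were lower in both 24 hpa libraries than in the 15 hpa library. The membrane-bound MMP14 differed little between 24 and 15 hpa. MMP9, a gelatinase, had 2327 and 3796 normalised reads at 24 hpa, against 11727 at 15 hpa, with 1295 and 1623 at 0 hpa and 6179 at 6 hpa before that (24 hpa minus 15 hpa log2 difference -1.98, SE 0.35, limma adjusted p = 0.29). At 72 hpa MMP9 was at 11022 and 7658, both above either 24 hpa library. MMP7, matrilysin, had 2371 and 3046 at 24 hpa, against 8285 at 15 hpa, and later 8391 and 5274 at 72 hpa. The collagenase MMP13 had 118 and 317 at 24 hpa and 1131 at 15 hpa, and stayed at 271 and 265 at 72 hpa. MMP14, which activates other proteases at the cell surface, had 14540.4 and 14486 at 24 hpa and 14604 at 15 hpa (log2 difference -0.01, SE 0.19). Of 27 matrix protease genes tested, 4 were lower by the size rule (14.8%), against 1.17% of all tested genes. In this list 0 were higher, against 1.2%, and the median was -0.39.

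Cytokine genes split by when they had been high. IL1R2, a decoy receptor for interleukin-1, had 157 and 309 normalised reads at 24 hpa, against 1443 at 15 hpa, with 1618 at 6 hpa before that. TNFAIP2, induced by tumour necrosis factor, had 353 and 466 at 24 hpa and 2044 at 15 hpa. Both were passing genes whose 6 and 15 hpa levels differed by less than 2-fold. Other genes already stood above both whole tail libraries at 0 hpa and were at least 2-fold lower at 24 than at 15 hpa. LOC100498551, cxcl8 in RefSeq and a neutrophil chemokine, had 237 and 189 at 24 hpa, against 866 at 15 hpa, with 8428 and 1605 at 0 hpa before that. FOSL1, an AP-1 transcription factor, had 389.7 and 694 at 24 hpa, against 2317 at 15 hpa, with 12014 and 4529 at 0 hpa before that. For both genes the 24 hpa libraries were below the 15 hpa library. IL1B, the cytokine itself, overlapped at 239 and 561 at 24 hpa and 379 at 15 hpa, as did SOCS3, a feedback inhibitor of cytokine signalling, at 4446 and 9218 at 24 hpa and 7742 at 15 hpa. Of 23 injury and inflammation genes tested, 4 were lower by the size rule (17.4%) and 1 was higher (4.35%). Over all tested genes these shares were 1.17% and 1.2%. The list median was 0.07, with -0.30 for 24 hpa replicate 1 and 0.46 for replicate 2, so its sign depended on the replicate. Of 24 immediate early genes, 3 were lower by the size rule (12.5%, against 1.17% of all tested genes). In this list 20 had a fitted value below 0, against 52.1% of all tested genes, and the median was -0.72. Leaving out replicate 2 made 12 lower, but this relaxes the rule, and the count over all tested genes rose too.

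Some enzymes for glucose and for peroxide were also lower at 24 than at 15 hpa. HK2, a hexokinase, had 297 and 349 normalised reads at 24 hpa and 894 at 15 hpa. TKT, of the pentose phosphate pathway that supplies NADPH, had 3927 and 4111 at 24 hpa, against 8285 at 15 hpa, and later 6850.3 and 15027 at 72 hpa. CAT, the catalase that breaks down hydrogen peroxide, had 666 and 1009 at 24 hpa, against 2279 at 15 hpa, with 313 and 458 at 0 hpa before that. SOD3, a secreted superoxide dismutase, had 308 and 462 at 24 hpa and 1226 at 15 hpa. The groups did not overlap in any of these. CAT.1 and CAT.2, further catalase entries, were also tested, and of the oxidative stress genes DESeq2 called CAT alone. By the size rule 3 of 32 glycolysis and hypoxia genes (9.38%, median -0.38) and 4 of 33 oxidative stress genes (12.1%, median -0.25) were lower, and 0 of either list were higher. Over all tested genes 1.17% were lower by this rule. The passing rule above held for 2 genes of each list, against 0.615% of all tested genes. As lists they did not rise from 0 to 15 hpa, with medians of -0.001 and -0.15 for 15 hpa minus 0 hpa. HMOX1, heme oxygenase, had its maximum earlier, with 1417 and 1069.9 at 24 hpa, against 882 at 15 hpa, with 4861 at 6 hpa before that.

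A few genes of other roles also peaked in the 15 hpa library. FOXH1, a partner of Smad proteins in nodal and activin signalling, had 10.9 and 8.41 normalised reads at 24 hpa, against 201 at 15 hpa, and 0 to 20.4 over all 9 libraries other than 15 hpa. Its log2 difference was -4.25 (SE 1.26, limma adjusted p = 0.63). BAAT, which conjugates bile acids in the liver, had 10.9 and 54.0 at 24 hpa and 473 at 15 hpa. ARG1, an arginase, had 212 and 277 at 24 hpa and 1181 at 15 hpa. HBOX10 was high at both early times, with 2.73 and 22.8 at 24 hpa, against 156 at 15 hpa, with 124 at 6 hpa before that.

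The 15 hpa value of the passing genes was also set beside libraries their rule had not used. The same 15 hpa value had chosen these genes, so the counts are description and no support for a passing level. Of the 110 genes above, the 15 hpa library was also at least 2-fold above both whole tail libraries in 92 and above both 72 hpa libraries in 44, and it was at least 2-fold above the 6 hpa library in 50 (0.279% of tested genes). Of the 101 genes below, 65 were also at least 2-fold below both whole tail libraries, 75 below both 72 hpa libraries and 82 below the 6 hpa library (0.458% of tested genes). The 15 hpa library was at least 2-fold beyond all 9 others in 24 genes above and in 45 below. In 58 of the 110 genes above, both 72 hpa libraries were above both 24 hpa libraries. In 18 of the 101 genes below, both 72 hpa libraries were below both 24 hpa libraries. The word passing thus describes 0, 15 and 24 hpa only. Among genes with symbols at the edge of the rule above, R3HCC1L was just inside at 1.01 log2 units, and DUSP10.2 and CHRNA1 were just outside at 0.972 and 0.969. On the side below, AKR1C3 and UPK3A were just inside at 1.05 and 1.06, and STAP1 and DDX43 just outside at 0.982 and 0.958.

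All 6 genes that rose at 24 hpa in limma's test were low in the 15 hpa library alone. XETROV90005353M.G had 4435 and 5156 normalised reads at 24 hpa, against 68.3 at 15 hpa, and 4057 to 5902 in the 9 libraries other than 15 hpa. Its log2 difference was 6.11 (SE 0.30, limma adjusted p = 0.00122; edgeR adjusted p = 0.0170), the only one also called by edgeR. LOC100489291 had 1001 and 694 at 24 hpa and 18.5 at 15 hpa (log2 difference 5.42, SE 0.42, limma adjusted p = 0.0174). The 24 hpa values of both genes lay within the range of the other times. LOC100492977 had 116 and 109 at 24 hpa and 2.69 at 15 hpa, and LOC100492293 had 126 and 116 at 24 hpa and 3.88 at 15 hpa (limma adjusted p = 0.0251 for both). XETROV90009992M.G had no read at 15 hpa and 116 and 122 normalised reads at 24 hpa, at least 133-fold over the limit of 3 reads in the 15 hpa library, and XETROV90027025M.G, also without a read, had 91.6 and 50.4, at least 79.3-fold over that limit (limma adjusted p = 0.0369 for both). Across 22 other fits XETROV90005353M.G was called in 21, the exception being a fit of the 24 and 15 hpa libraries alone, and the other 5 genes in 8 to 13. Leaving out any 1 replicate left 1 or 2 of these 6 called. Neither the files nor the RefSeq table used here name a function for these genes.

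Named genes shared the low value of that library without passing the test. NDC80, a kinetochore protein that holds chromosomes to the spindle, had 5244 and 4284 normalised reads at 24 hpa, against 1286 at 15 hpa, and 4161 to 6007 elsewhere (log2 difference 1.88, SE 0.22, limma adjusted p = 0.0604). NUF2 and SPC25, partners in the same complex, did not share the low value. NUF2 had 869.7 and 833 at 24 hpa and 873 at 15 hpa. For SPC25 the levels were 833 and 938 at 24 hpa and 820.4 at 15 hpa. Of 44 mitosis genes tested, NDC80 was the 1 that met the size rule (2.27%, against 1.2% of all tested genes higher). ZNF687, a zinc finger protein, had 3765 and 3193 at 24 hpa and 1325 at 15 hpa. CACNA1E, a voltage-gated calcium channel, had 139 and 138 at 24 hpa and 13.4 at 15 hpa (limma adjusted p = 0.0974). PIWIL1, which binds small RNAs of the germ line, had 286 and 116 at 24 hpa and 14.0 at 15 hpa. MGST1, a membrane-bound glutathione transferase, had 1087 and 672 at 24 hpa and 228 at 15 hpa. The 15 hpa value was the lowest of all 10 libraries in each of these. PTGES, a prostaglandin synthase, was as low in 1 other library, with 6139 and 5312 at 24 hpa, against 432 at 15 hpa, with 8212 and 401 at 0 hpa before that. A 2-fold count over all tested genes required a median of at least 100 normalised reads in the other 9 libraries. By it 49 genes in the 15 hpa library were below all 9 others, against 9 and 13 in the 24 hpa libraries. The counts were 11 at 6 hpa, 12 and 17 at 0 hpa, 128 and 30 in the whole tail, and 72 and 156 at 72 hpa. A replicate holds this count back, and the libraries at 6 and 15 hpa have none.

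**Figure D3:**
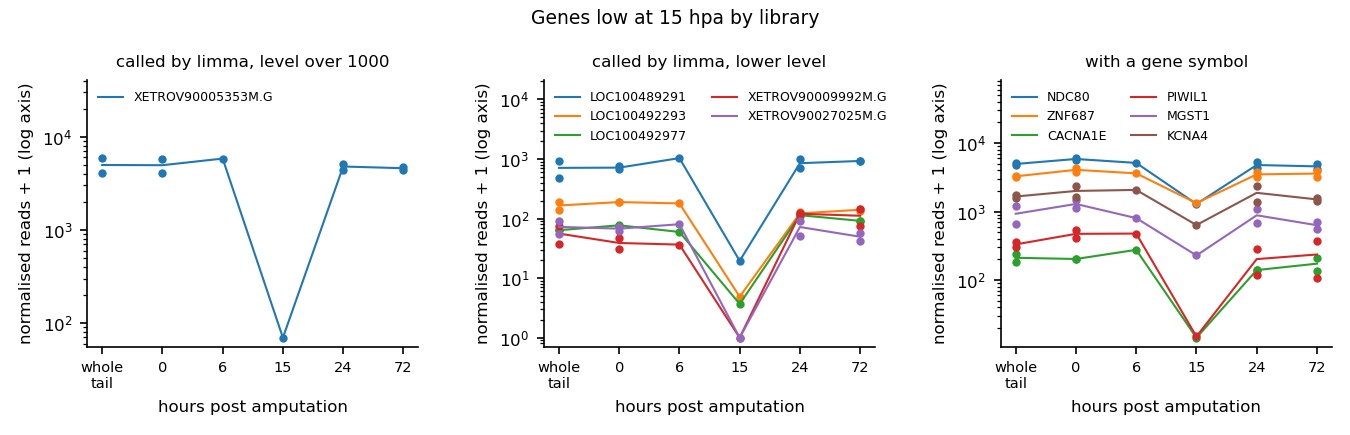
Normalised reads plus 1 on a log axis in all 10 libraries for the 6 genes called by limma (left and middle) and 6 named genes (right), with lines through group means. The 15 hpa library is the lowest point of every gene, and both 24 hpa points lie more than 2-fold above it.

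Of the 8 genes that left their early level to be lower at 24 hpa, 3 act in the breakdown of aromatic amino acids. TAT, tyrosine aminotransferase, which takes the first step of tyrosine breakdown, had 284 and 287 normalised reads at 24 hpa, against 1751 at 15 hpa, with 1189.8 and 2427 at 0 hpa and 1495 at 6 hpa before that. Its log2 difference between 24 and 15 hpa was -2.61 (SE 0.70, limma adjusted p = 0.52). FAH, the last enzyme of the same route, had 1277 and 1173 at 24 hpa and 3478 at 15 hpa. QDPR, which recycles the cofactor tetrahydrobiopterin, had 922 and 976 at 24 hpa and 2965 at 15 hpa (log2 difference -1.64, SE 0.37, limma adjusted p = 0.405). Both 24 hpa libraries were below every library of 0, 6 and 15 hpa in all 3 genes. At 72 hpa TAT was at 271 and 967 and FAH at 1655 and 2887, so the replicates there differed, and QDPR was at 846 and 1312.

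Other enzymes of the route, looked up after these values were seen, lay on the same side. HGD, homogentisate dioxygenase, had 1093 and 945 normalised reads at 24 hpa and 2126 at 15 hpa. HPD-LIKE.1, named for the dioxygenase that follows TAT, had 3670.3 and 3399 at 24 hpa and 8059 at 15 hpa, and met the size rule. In a list of 6 genes of the route, which leaves out HPD-LIKE.1, all had a fitted value below 0. By the size rule 3 of them were lower (50%), and the median was -1.28. Because 3 of the 6 had prompted the list, this count is no support for it.

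The remaining early-level genes that were lower at 24 hpa came from several roles. CKMT1B, a mitochondrial creatine kinase, had 287 and 258 normalised reads at 24 hpa and 620.4 at 15 hpa. DTX1, a regulator of Notch, had 64.3 and 44.4 at 24 hpa and 152 at 15 hpa. GALNT9, which starts O-linked glycans, had 36.9 and 54.0 at 24 hpa and 129 at 15 hpa, and was still lower at 21.6 and 12.2 at 72 hpa. The other 2 were the small heat shock gene LOC100493630, hsp30c in RefSeq, and LOC100489058, which has no name. In 5 of the 8 genes both 72 hpa libraries were also below all libraries of 0, 6 and 15 hpa. ELN1, elastin, the protein of elastic fibres, missed the rule by a small margin, with 15 hpa 0.522 log2 units below the 0 hpa mean where 0.5 was allowed. It had 3505 and 5731 at 24 hpa, against 16182 at 15 hpa, and later 1496 and 2170.3 at 72 hpa (24 hpa minus 15 hpa log2 difference -1.85, SE 0.40, limma adjusted p = 0.38). Its paralog ELN2 overlapped, with 26472 and 13447 at 24 hpa and 25667 at 15 hpa. CADPS and KCNB2, genes of vesicle release and of a potassium channel, were the next genes with symbols outside at 0.616 and 0.664.

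**Figure D4:**
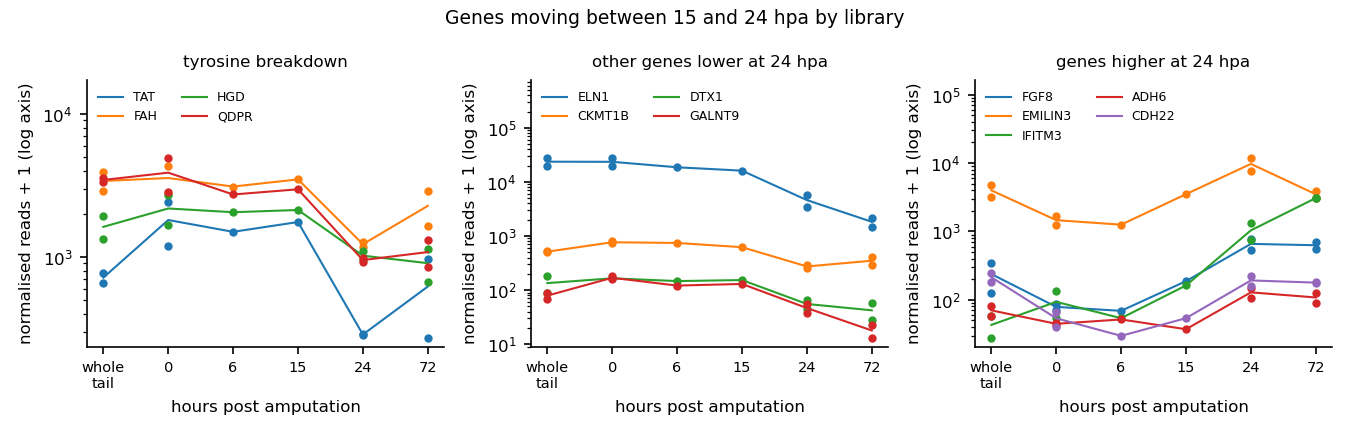
Normalised reads plus 1 on a log axis in all 10 libraries for tyrosine breakdown genes (left), other genes lower at 24 hpa (middle) and genes higher at 24 hpa (right), with lines through group means. TAT, FAH, QDPR and ELN1 lie near their 0 hpa level at 6 and 15 hpa and lower at 24 hpa, and ADH6, FGF8, EMILIN3, IFITM3 and CDH22 lie higher there.

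Of 5 genes that left their early level to be higher at 24 hpa, 4 are described here. ADH6, an alcohol dehydrogenase, had 149 and 106 normalised reads at 24 hpa, against 36.1 at 15 hpa, with 45.0 and 42.1 at 0 hpa and 50.6 at 6 hpa before that (24 hpa minus 15 hpa log2 difference 1.77, SE 0.50, limma adjusted p = 0.59). It stayed above its early levels at 72 hpa, at 124 and 89.9. LOC100490537 had 133 and 120.1 at 24 hpa and 24.8 at 15 hpa, and its 0 hpa replicates differed, at 35.6 and 9.16. LOC100494289, prss8l100494289 in RefSeq, differed between replicates, with 5838 and 23999 at 24 hpa and 2578 at 15 hpa. LOC101731543-LIKE was near its early level again at 72 hpa, with 153 and 124 at 24 hpa, against 55.8 at 15 hpa, and later 43.9 and 63.2 at 72 hpa. Of 18 retinoic acid pathway genes tested, 15 had a fitted value above 0 and 2 were higher by the size rule (11.1%), CYP26A1 among them, with a median of 0.35. Over all tested genes 47.9% had a fitted value above 0 and 1.2% were higher by the rule. CYP26A1, which degrades retinoic acid, had 778 and 599 at 24 hpa, against 272 at 15 hpa, with 959 and 3519 at 0 hpa before that. It was thus a passing gene below, which rests on the 15 hpa library. Its 15 and 24 hpa values were all under both 0 hpa values.

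Several growth factor and matrix genes outside the rule for first movers were higher in both 24 hpa libraries than at 15 hpa. FGF8, a secreted growth factor of the tailbud, had 777 and 534 normalised reads at 24 hpa, against 186 at 15 hpa, with 69.3 and 86.1 at 0 hpa and 67.9 at 6 hpa before that (24 hpa minus 15 hpa log2 difference 1.79, SE 0.59, limma adjusted p = 0.8). FGF20, by contrast, had 389.7 and 597 at 24 hpa, against 297 at 15 hpa, with 18.7 and 44.0 at 0 hpa and 158 at 6 hpa before that. FGF16 had 563 and 705 at 24 hpa and 295 at 15 hpa, and FGF10 overlapped at 416 and 626 at 24 hpa and 649 at 15 hpa. FGF8 was the 1 of 22 FGF pathway genes that met the size rule (4.55%, against 1.2% of all tested genes higher). The list median was 0.05, with opposite signs in the replicates (-0.14 and 0.21).

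The notochord homeobox gene NOT had 1685 and 1741 normalised reads at 24 hpa, against 930.5 at 15 hpa, with 296 and 282 at 0 hpa and 92.3 at 6 hpa before that. EMILIN3, a matrix glycoprotein, had 11769.9 and 7620.0 at 24 hpa, against 3496 at 15 hpa, and later 3929 and 3048 at 72 hpa, so that its highest values were those of 24 hpa (24 hpa minus 15 hpa log2 difference 1.44, SE 0.36, limma adjusted p = 0.48). TNN, a tenascin, had 2254 and 1611 at 24 hpa, against 600.1 at 15 hpa, and later 7346 and 8781 at 72 hpa. BAMBI, a decoy receptor that dampens BMP signals, had 7259 and 7152 at 24 hpa and 3369 at 15 hpa. The Wnt receptor FZD10 had 2605 and 2646 at 24 hpa and 1198 at 15 hpa, whereas the ligand WNT5B had 1568 and 2436 at 24 hpa and 1118 at 15 hpa. Both 24 hpa libraries were above 15 hpa in all of these. By the size rule 1 of 52 Wnt genes (1.92%, median 0.05) and 1 of 36 BMP genes (2.78%, median 0.11) were higher and 0 of either were lower, shares close to the 1.2% over all tested genes.

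IFITM3, an interferon-induced membrane protein, had 738 and 1329 normalised reads at 24 hpa, against 161 at 15 hpa, with 52.5 and 132 at 0 hpa before and 3089.7 and 3043 at 72 hpa after (24 hpa minus 15 hpa log2 difference 2.62, SE 0.66, limma adjusted p = 0.48). GPNMB, a glycoprotein of macrophages and pigment cells, had 364 and 305 at 24 hpa, against 97.9 at 15 hpa, and later 722 and 736 at 72 hpa. TNFSF10, a ligand that can trigger cell death, had 674 and 1015 at 24 hpa and 234 at 15 hpa. CDH22, a cadherin, had 224 and 157 at 24 hpa, 52.8 at 15 hpa, and 181 and 244 in the whole tail, so that its 24 hpa level was that of the removed tail. Among genes with symbols, CDH22, IFITM3 and FGF8 were the nearest outside the rule for first movers on the higher side, at 0.808, 0.941 and 1.26 log2 units where 0.5 was allowed.

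Tail patterning genes did not move together in this step. Of 26 tailbud genes, 2 were higher by the size rule (7.69%), FGF8 and CYP26A1, and 15 had a fitted value above 0. Over all tested genes 1.2% were higher by the rule and 47.9% had a fitted value above 0. CYP26A1 was a passing gene below and so rests on the 15 hpa library. The presomitic gene MSGN1 had 0 and 31.2 normalised reads at 24 hpa and 0.298 at 15 hpa, so that the replicates differed from each other. The posterior Hox gene HOXC13 had 684 and 1831 at 24 hpa and 2006 at 15 hpa, and HOXC12 had 521 and 1729 at 24 hpa and 1990.5 at 15 hpa. Over 12 posterior Hox genes the median was -0.78 in replicate 1 and 0.33 in replicate 2, so no direction could be given.

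Lists of neuron, endothelial, pigment cell and cilia genes were lower in median, with 1 gene among them past the size rule. Of 31 neuron genes, 27 had a fitted value below 0, against 52.1% of all tested genes. The median was -0.89, with -0.74 and -0.80 in single replicates. limma's adjusted test called 0 of the 31, as did edgeR and DESeq2. At an unadjusted limma p under 0.05, 4 were lower and 1 was higher. SLC18A3, the vesicular acetylcholine transporter, was the 1 lower by the size rule (3.23%, against 1.17% of all tested genes). It had 103 and 96.1 normalised reads at 24 hpa, against 215 at 15 hpa, with 603 at 6 hpa before that. ELAVL4, an RNA-binding protein of neurons, had 286 and 325 at 24 hpa, against 574 at 15 hpa, with 1307 at 6 hpa before that. SNAP25, of the synaptic vesicle fusion machinery, had 568 and 450.3 at 24 hpa, against 938 at 15 hpa, with 1488 at 6 hpa before that. Values of these 3 genes were lower at 15 than at 6 hpa and lower again at 24 hpa. For 24 against 15 hpa their limma adjusted p was 0.92 (SLC18A3), 0.96 (ELAVL4) and 0.63 (SNAP25).

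Of 30 endothelial genes, 27 had a fitted value below 0 (median -0.71, with -1.08 and -0.32 in single replicates) and 0 met the size rule. Of 18 pigment cell genes 15 were below 0 (median -0.74), and of 24 cilia genes 20 (median -0.52), again with 0 by the size rule. Over all tested genes 52.1% were below 0. Medians in 24 hpa replicates 1 and 2 were -0.37 and -0.81 for pigment cell genes and -0.12 and -0.84 for cilia genes. In all 3 lists limma called 0 members, as did edgeR and DESeq2, and 0 had an unadjusted limma p under 0.05. Of 40 sarcomere genes, 3 were lower by the size rule (7.5%, against 1.17% of all tested genes), DES.2, MYBPC1 and MYH2, and 0 higher. Fitted values of the list ran from -4.84 to 3.46, with 18 above 0 and 22 below. At an unadjusted limma p under 0.05, 2 were higher and 1 lower. MYBPC1, a myosin-binding protein, had 13.7 and 40.8 normalised reads at 24 hpa and 709 at 15 hpa and was the 1 of the list that DESeq2 called lower. Sarcomere genes had a median of 0.37 in replicate 1 and -0.86 in replicate 2, the direction in which muscle reads differed between the 24 hpa libraries, and the part of that difference in the other lists was not tested.

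**Figure D5:**
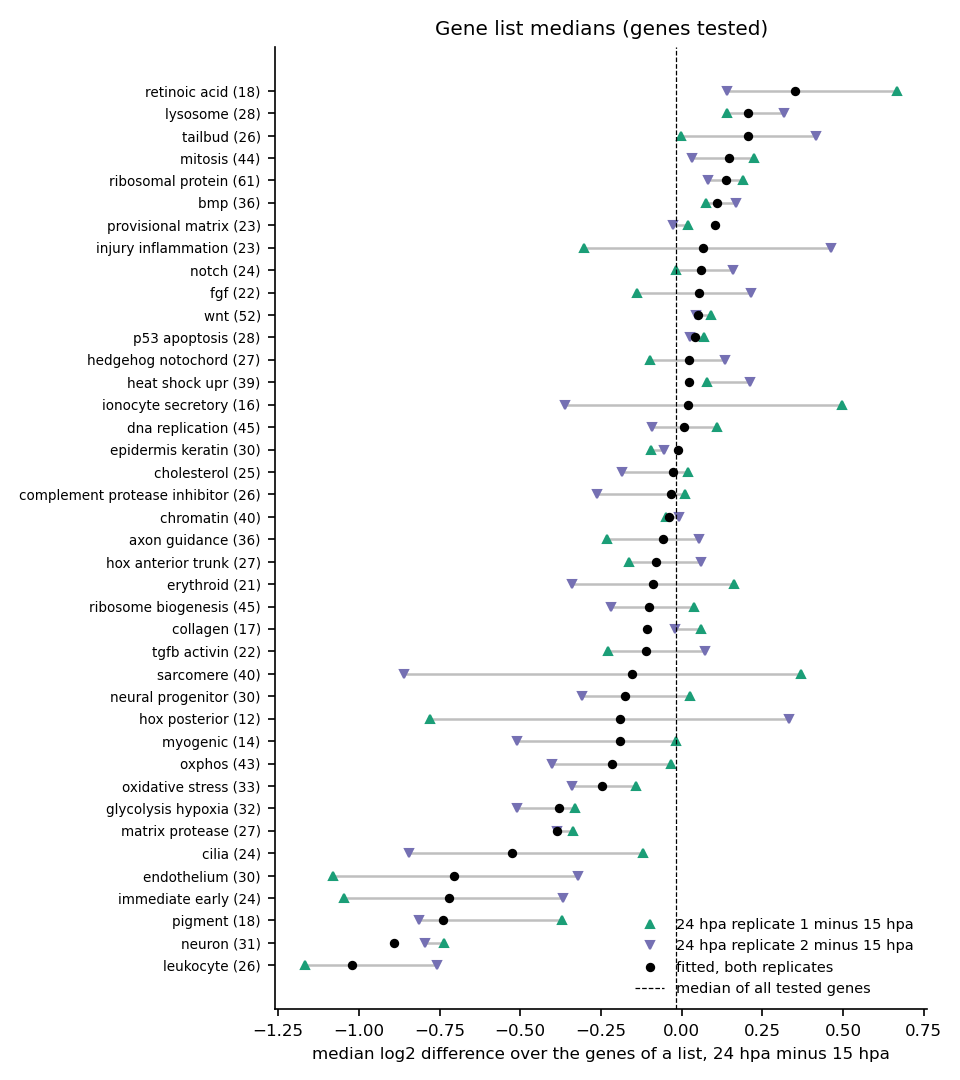
Median log2 difference, 24 hpa minus 15 hpa, over the tested genes of 40 gene lists, as fitted (black) and for each 24 hpa replicate alone (triangles), with the number of genes in brackets. Leukocyte, neuron, pigment, immediate early and endothelium genes lie lowest, and the sarcomere, ionocyte and posterior Hox lists differ most between the replicates.

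Growth and matrix genes were near the median of all genes. Of 61 ribosomal protein genes, 57 had a fitted value above 0, but the median was 0.14 and 0 met the size rule. DNA replication genes had a median of 0.01 and mitosis genes one of 0.15. PCNA, the replication clamp, had 7238 and 6174 normalised reads at 24 hpa and 6261 at 15 hpa (log2 difference 0.09, SE 0.31). FN1, fibronectin of the provisional wound matrix, had 304219 and 222884 at 24 hpa, against 208843 at 15 hpa, with 19008 and 13268 at 0 hpa before that (24 hpa minus 15 hpa log2 difference 0.32, SE 0.36). KRT16, a keratin of wound epidermis in mammals, had 277558 and 399707 at 24 hpa and 269358 at 15 hpa, while KRT18 and KRT8, which pair with each other in simple epithelia, were lower in value. KRT18 had 32917 and 29845 at 24 hpa and 52724 at 15 hpa, and KRT8 had 42594 and 37276 at 24 hpa and 67128 at 15 hpa (log2 differences -0.75 and -0.75, limma adjusted p = 0.83 and 0.96).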

How the data were processed

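Tail RNA of stage 40 tadpoles was sequenced as 10 libraries. Tools listed in the submitters' processing notes are TopHat2 2.0.13, Trim Galore 0.3.3, HTSeq, SAMtools 1.1, R 3.2.0 and DESeq2. No genome build is given in the sources used here. The authors deposited a normalised signal per gene (26550 genes): dividing each library by its smallest step gave whole numbers for all values (100% at a tolerance of 0.01), and the steps matched DESeq2 size factors, so whole reads were recovered. Depth was 121670034 gene reads at 15 hpa and 27948915 and 30181402 at 24 hpa.

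limma 3.58.1 (R 4.3.3, variance trend) was fitted to log2(value + 1) of genes that reached 10 normalised reads in 2 or more libraries. All 10 libraries entered as 6 groups with 4 residual degrees of freedom, so the single libraries at 6 and 15 hpa take the spread of the 4 duplicated groups, and adjusted p-values are Benjamini-Hochberg over 17896 genes. Fold changes on this scale understate low genes. The filter left out 53 genes that exceeded 10 normalised reads at 15 hpa alone. edgeR 4.0.16 on the recovered reads called 1 gene and DESeq2 1.42.0 called 204. The fits were tested on simulated counts in which 50 genes of each size were changed at 24 hpa. limma recovered 2% of changes of 1 log2 unit and 32% of those of 2 log2 units. edgeR recovered 0% and 36%, and DESeq2 10% and 60%. False calls were 8 of 99 for limma, 8 of 99 for edgeR and 68 of 186 for DESeq2. No change was simulated in the 15 hpa library, so the rates do not cover genes that deviate there.

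Members, the 40 gene lists (1193 of 1456 symbols matched, 42 of the genes by their RefSeq gene ID) and the rules were chosen with earlier results of these data known, and 5 lists were added after values were seen. Genes named are those with symbols that come first by p or by gap within the rules, up to 4 per list, and a panel of 26 genes, 23 of them tested; other named genes were chosen after their values were seen. RefSeq (UCB_Xtro_10.0) gave names for locus identifiers. No sequence is printed. Values of a few genes are not reported here.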

Additional observations from a re-analysis of the deposited data

How the results depend on the processing

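No paired analysis was possible because the 15 hpa library carries no replicate number. The 6 genes higher at 24 hpa by limma's adjusted test became 1 with edgeR under TMM factors or DESeq2 size factors, 162 with DESeq2, 30 without a filter on low values, 2 at a pseudocount of 5, 0 with the 24 and 15 hpa libraries fitted alone, and 1 to 2 when a replicate was left out. The 0 lower became 42 with DESeq2 and 100 without the filter. Genes higher and lower by the 2-fold rule numbered 490 and 677 at 1.5-fold, 54 and 24 at 4-fold, 756 and 473 with no level minimum, 70 and 90 at a minimum of 500 normalised reads, and 437 to 452 and 604 to 748 when a 24 hpa replicate was left out, which relaxes the rule by construction.

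Passing genes above and below numbered 296 and 243 at 1.5-fold, 15 and 21 at 4-fold, 189 and 427 with no minimum, 51 and 34 at 500, and 124 to 216 and 118 to 152 when a replicate was left out, the most being without 24 hpa replicate 2. In 65 of the genes below, the 15 hpa library was also beyond both whole tail libraries, and beyond all 9 others, an alternative chosen after seeing the data, there were 24 above and 45 below. First movers higher and lower numbered 21 and 51 at 1.5-fold, 0 and 1 at 4-fold, 12 and 26 with no minimum, 1 and 4 at 500, and 3 and 3 when also beyond the whole tail. With 1 log2 unit allowed around 0 hpa, added after seeing the data, there were 9 and 19. A pseudocount of 5 left 3 higher and thinning to 1 depth 2 higher, and leaving out a replicate gave 5 to 18 higher and 10 to 87 lower. Leukocyte genes lower by the 2-fold rule were 14 without 24 hpa replicate 2, which relaxes the rule, and 6 in thinned libraries. In 21 of 40 lists the median changed sign under some alternative, in 16 of them only when a 24 hpa replicate was left out. The cause was not tested for any of these, except where noted. Depth limits 24 hpa values under 4.10 normalised reads.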

Other observations

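Clock genes cycle over a day, and a list of them was added after values were seen. Of 19 tested, 2 were higher at 24 than at 15 hpa by the 2-fold rule, ARNTL and NPAS2, and 0 were lower. The share higher was 10.5%, against 1.2% of all tested genes. ARNTL and NPAS2 were passing genes below, at least 2-fold under all 0 and 24 hpa libraries, and so rest on the 15 hpa library. Fitted values were below 0 for 16 of the 19, with a median of -0.33, and limma's adjusted test called 0, with 2 higher and 2 lower at an unadjusted p under 0.05. ARNTL, the partner of CLOCK, had 2105 normalised reads at 6 hpa, 267 at 15 hpa and 838 and 728 at 24 hpa. NPAS2, which can replace CLOCK, had 443 at 6 hpa, 25.7 at 15 hpa and 278 and 154 at 24 hpa. NR1D2, a repressor of ARNTL, and TEF, an output gene, did not meet the rule. NR1D2 had 356 at 6 hpa, 2703 at 15 hpa and 1132 and 1387 at 24 hpa, and TEF had 3506 at 6 hpa, 9617 at 15 hpa and 5985 and 3754 at 24 hpa. The times 0, 24 and 72 hpa are whole days of 24 hours apart and 15 hpa is not, and clock times of sampling were not given, so hours after the cut and time of day cannot be told apart in this comparison.

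Of 39 heat shock and unfolded protein response genes tested, 22 had a fitted value above 0, with a median of 0.02. By the 2-fold rule 0 were higher and 1 was lower (2.56%, against 1.17% of all tested genes). The 1 lower was LOC100485441, hspa1b in RefSeq, with 56.1 and 69.6 normalised reads at 24 hpa, against 259 at 15 hpa. limma's adjusted test called 0 of them, with 4 higher and 3 lower at an unadjusted p under 0.05. PDIA4, a disulfide isomerase of the endoplasmic reticulum, had 9875 and 7897 at 24 hpa, against 4798 at 15 hpa, and its relative PDIA6 had 20263 and 13177 at 24 hpa, against 8774 at 15 hpa (limma adjusted p = 0.92 and 0.91). Neither met the rule. Picked after its values were seen, the small heat shock gene LOC100493795, hsp30e in RefSeq, had 39.7 and 27.6 normalised reads at 24 hpa, against 135 at 15 hpa. Another, LOC100489362, hsp30d in RefSeq, had 13.7 and 55.2 at 24 hpa, against 170.4 at 15 hpa. Of 28 lysosome genes, 21 had a fitted value above 0 with a median of 0.20, among them CTSB, a cathepsin, with 10669 and 11298 at 24 hpa and 6514 at 15 hpa.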
